A study of Mus musculus with 2 samples.

Results

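The genomic interval described here is the 1.4 Mb around Sox2 on mouse chromosome 3, with probes from chr3:34199993-35599984 (mm9), which holds Sox2, 381.5 kb of the long non-coding gene Sox2ot that surrounds it, and the gene desert beyond. Its members were chosen by position alone, as fixed 1 kb windows with at least 3 array probes whose midpoints lay in that span. There were 1146 such windows of the 1400 in the span, out of 14947 windows on the arrays, and they held 13126 of the 170542 probes used. Sox2 was the only one of the 6 annotated gene starts in the interval that was protein-coding (GENCODE release M1), and the next protein-coding start, that of Atp11b, lay 53.1 kb past its far end.

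Rad21 was profiled in RAG cells, a line from a mouse renal adenocarcinoma that the study calls Pax6-OFF, by hybridising immunoprecipitated chromatin to Agilent tiling arrays (ChIP-chip). The series is 1 group of 2 arrays, called replicates 1 and 2, each from cells grown in a separate flask, with formaldehyde-fixed chromatin and a polyclonal Rad21 antibody. ChIP and input DNA were both amplified by whole-genome amplification and amplified again before labelling. No untreated, knockout or control-antibody array was analysed here, so what was compared is Cy3 with Cy5, one position with another and one replicate with the other.

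Rad21 is a core subunit of cohesin, the ring-shaped complex that holds sister chromatids together and that forms chromatin loops in interphase by extruding DNA. Cohesin accumulates where extrusion is halted, mostly at sites bound by the zinc finger protein CTCF, and loops form preferentially between CTCF sites whose motifs point toward each other. Sox2 encodes a transcription factor of pluripotent, neural and eye progenitor cells. In embryonic stem cells its expression depends on a distal control region in the desert downstream of the gene, and Sox2ot is transcribed across the gene in the same direction.

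All values are log2 ratios of Cy3 over Cy5, centred on the median of each array. The labels put input DNA in Cy3 and ChIP DNA in Cy5 on both arrays, with no dye swap, whereas the log2 table the authors deposited ran as Cy3 over Cy5. Across probes it had a Pearson r of 0.687 with replicate 1 and of 0.694 with replicate 2 in that direction. Neither channel's content is recorded in the scanner files. Values are therefore given by dye, as higher in Cy3 or higher in Cy5, and which of these is Rad21 enrichment is not settled by these sources. Reading positive values as ChIP over input would follow the deposited table and oppose the labels.

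Of the 10 regions of the interval called as higher in Cy3 from both arrays together, 6 were also called on each array alone, and the sequences at these are printed first because 4 of them held a match to the CTCF core consensus close to the summit. The sequences come from the mm9 genome (NCBIM37) and are written 5′ to 3′ on the strand named. Capitals mark the best match to the core consensus of the CTCF motif, searched on both strands with at most 1 mismatch, and sequences without capitals are centred on a summit with no match within 500 bp. Distances are in kb from the Sox2 start (chr3:34548927, plus strand), negative upstream.
Region at -321 kb, chr3:34227929-34228060, plus strand: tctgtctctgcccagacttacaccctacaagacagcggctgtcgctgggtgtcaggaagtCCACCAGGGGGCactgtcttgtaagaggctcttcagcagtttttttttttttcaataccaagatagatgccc
Region at -10.8 kb, chr3:34538096-34538215, plus strand: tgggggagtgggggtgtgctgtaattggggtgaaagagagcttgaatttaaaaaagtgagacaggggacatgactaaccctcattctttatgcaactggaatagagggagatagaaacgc
Region at -1.92 kb, chr3:34546749-34546880, plus strand: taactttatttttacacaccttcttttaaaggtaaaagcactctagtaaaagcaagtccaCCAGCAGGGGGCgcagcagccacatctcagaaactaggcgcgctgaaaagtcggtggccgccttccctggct
Region at 453 kb, chr3:35002294-35002425, minus strand: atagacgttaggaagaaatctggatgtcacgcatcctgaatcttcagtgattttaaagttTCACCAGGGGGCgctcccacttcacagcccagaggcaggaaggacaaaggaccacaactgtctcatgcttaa
Region at 832 kb, chr3:35381380-35381511, minus strand: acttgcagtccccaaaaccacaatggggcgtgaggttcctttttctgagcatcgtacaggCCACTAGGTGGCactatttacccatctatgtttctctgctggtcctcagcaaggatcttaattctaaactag
Region at 1039 kb, chr3:35587997-35588116, plus strand: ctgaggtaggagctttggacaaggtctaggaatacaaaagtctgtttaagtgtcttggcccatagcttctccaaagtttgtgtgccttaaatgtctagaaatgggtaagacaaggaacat

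Upstream of Sox2, the cores of the regions at -321 and -1.92 kb lay on the plus strand, at chr3:34227989-34228000 and chr3:34546809-34546820, and both matched the consensus exactly. The region at -10.8 kb, also upstream, held no core match. The nearest cores of the regions at 453 and 832 kb lay on the minus strand, at chr3:35002354-35002365 with 1 mismatch and at chr3:35381440-35381451 with none. The plus-strand matches at -321 and -1.92 kb and the minus-strand matches at 453 and 832 kb thus face each other across the gene. The matches lay 91, -192, 36 and 122 bp from their summits, in the order in which the regions are printed. The region at 832 kb held another minus-strand match with 1 mismatch, 348 bp from its summit. Farther out, the region at 1039 kb held a plus-strand match with 1 mismatch, -529 bp from its summit and so outside the searched distance. A match describes the letters only and is not evidence of bound CTCF, which was not measured on these arrays.

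Most of the interval lay close to the array median. The windows averaged -0.07 in replicate 1 and -0.06 in replicate 2, and the median SD between the arrays was 0.10 per window. Across the 1146 windows Pearson r between the arrays was 0.62 and Spearman rho was 0.447; neighbouring windows share DNA fragments and all share the 2 hybridisations, so these are descriptions. Median processed signals in the interval were 939 (Cy3) and 921 (Cy5) in replicate 1, and 967 and 931 in replicate 2. Over all spots the median signal was 43.6 and 56.3 times the local background in Cy3 and 19.8 and 23.4 times in Cy5, so dim spots were not the rule in either channel. Probe GC content averaged 43.0% in the interval and 42.8% on the arrays.

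With limma, 31 of the 1146 windows were higher in Cy3, or 2.71%, beside 3.86% of all windows on the arrays. Their median was 0.75, the highest was 1.66, and 10 exceeded 1. Another 58 windows, or 5.06%, were higher in Cy5, beside 5.86% on the arrays, with a median of -0.48 and a lowest value of -0.93. Neither share stood above the background of the arrays. The windows higher in Cy3 were gathered in few places: 25 of the 31 overlapped one of the 10 regions, and 3 lay more than 5 kb from any region summit. Windows and regions were called from the same probe values, so this overlap is not independent support for either. Of the 58 windows higher in Cy5, 7 lay within Sox2ot and 26 beyond 900 kb, where the interval had 97 windows, and 1 of the 58 lay within 5 kb of a summit.

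**Figure D1:**
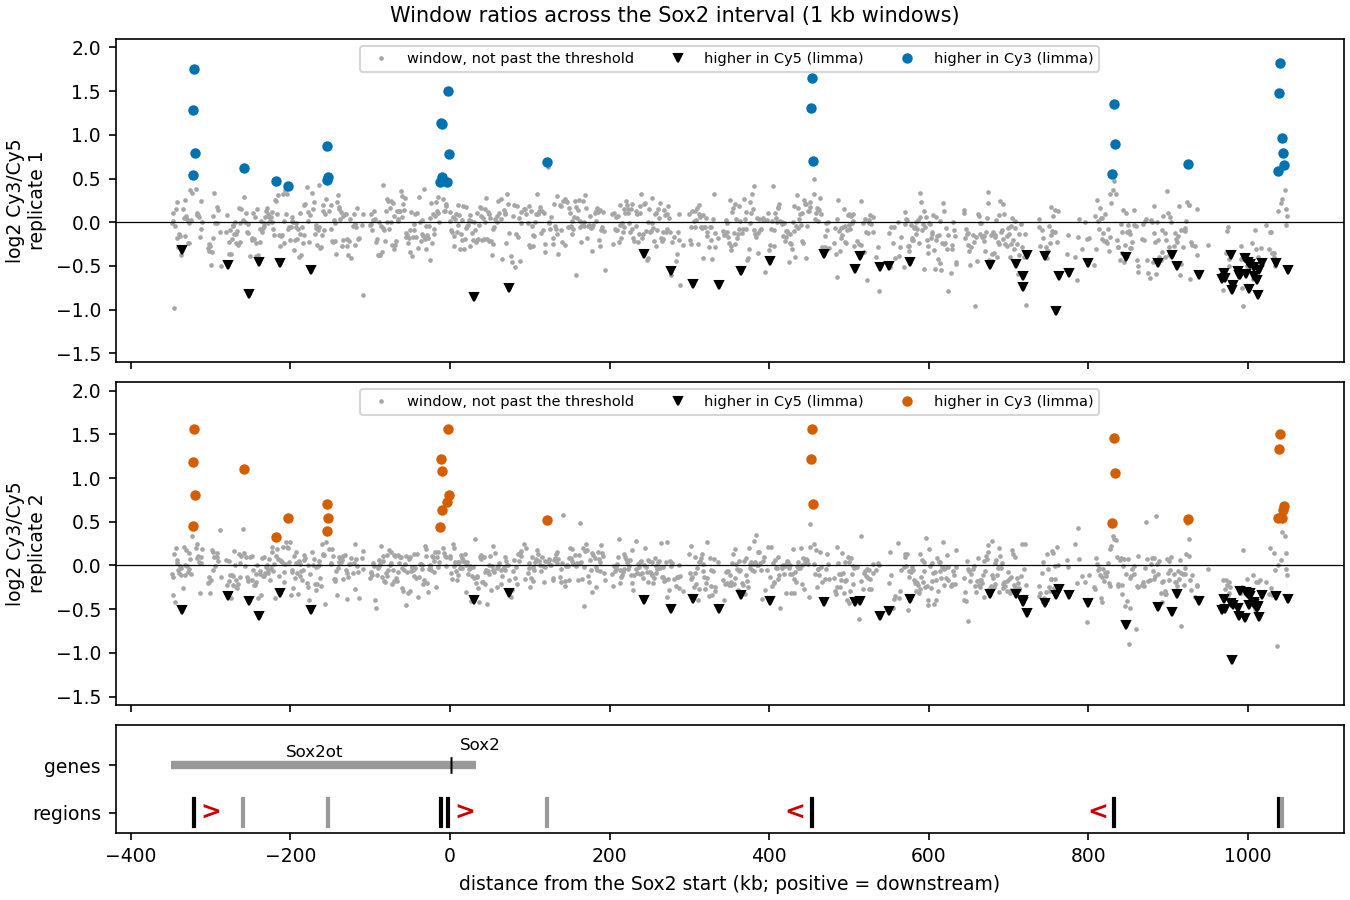
Log2 Cy3/Cy5 of each 1 kb window (y axis) against its distance from the Sox2 start in kb (x axis) for replicate 1 (top) and replicate 2 (middle), with windows past the limma threshold in colour (higher in Cy3) or as black triangles (higher in Cy5). The lowest panel shows Sox2, Sox2ot and the 10 regions (black where also called on each array alone), with red arrowheads for the strand of the best CTCF core match. The limma call was made on both arrays together, so the same windows are marked in both panels, and those in colour lie above 0 on each.

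Regions were called where a running median over both arrays exceeded 0.66, the 0.99 quantile of a mirrored null. The 10 regions covered 16103 bp, or 1.15% of the interval, and 29 windows (2.53%) overlapped one, beside 3.14% of windows on the arrays. The rule sets no error rate, because a fixed share of null positions passes it. At a threshold of the same size in the opposite direction 5 regions of the interval were called as higher in Cy5, and on the arrays the counts were 206 in Cy3 and 148 in Cy5. Requiring a call on each array alone left 6 of the 10 regions in Cy3 and 0 of the 5 in Cy5, and 153 and 18 on the arrays. At the stricter quantile among the alternatives, these 6 were the only regions of the interval called in Cy3 and there were 0 in Cy5. These 6 are therefore given in full, and the other 4 as values near the threshold.

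The regions closest to the gene lay upstream of it, within Sox2ot. The region at -1.92 kb (chr3:34545658-34547337), which lay in an intron, had 28 probes with a mean of 1.37 in replicate 1 and 1.44 in replicate 2, that is 1.41 ± 0.05 (SD, n = 2). Its median signals were 4830 (Cy3) and 1414 (Cy5) in replicate 1 and 4524 and 1337 in replicate 2, so both channels were above the interval's medians and Cy3 by far more. The region at -10.8 kb (chr3:34536905-34539642) had 40 probes with means of 1.01 and 1.06, or 1.04 ± 0.03 (SD, n = 2). Its summit was intronic, but it also covers Sox2ot exons that together span chr3:34537096-34537561 and the microRNA gene Mir1897 (chr3:34537386-34537464). It had 3 probes with a saturated spot and held no core match. The windows at the summits had limma adjusted p of 0.00244 and 0.000434, and the summits lay 8.85 kb apart. At -1.92 kb the summit fell close to a window border, and the adjoining window upstream had the higher mean, 1.53 (limma adjusted p = 0.000124).

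At the Sox2 start itself the arrays showed no such signal. The window that holds it (chr3:34548000-34548999) stood at 0.12 in replicate 1 and 0.09 in replicate 2, or 0.10 ± 0.02 (SD, n = 2), with a limma adjusted p of 0.535. The next window upstream stood at 0.79 and 0.80 and the one before it at 1.53 ± 0.05 (SD, n = 2), so the level dropped within about a window of the start. The windows between both upstream regions lay between 0.10 and 0.23 as means of the arrays, and none of them passed the limma threshold. Downstream, the window beginning at chr3:34549000, in the gene, stood at 0.02 and 0.11.

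**Figure D2:**
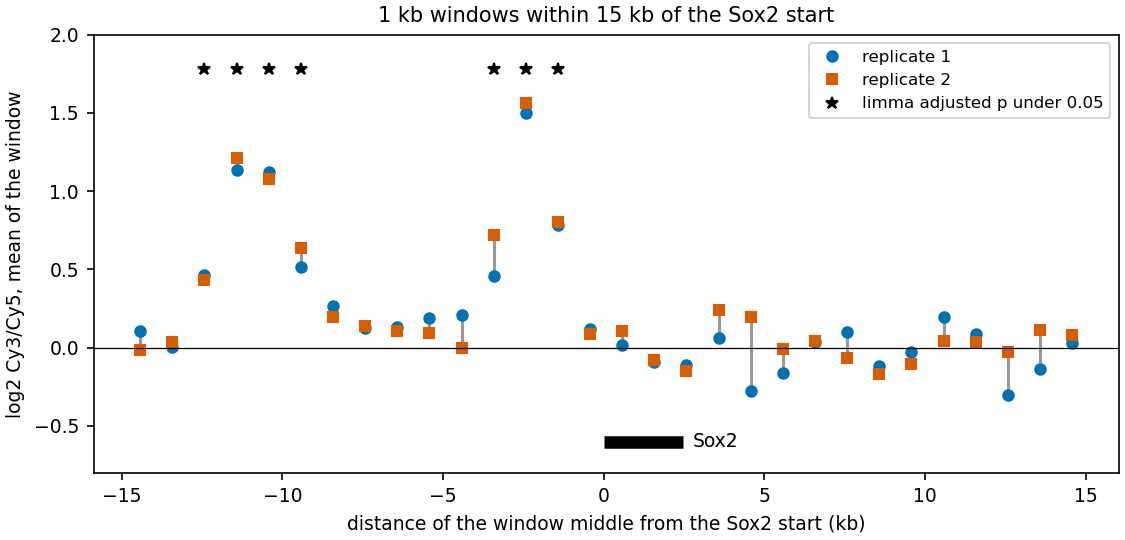
Log2 Cy3/Cy5 of the 1 kb windows nearest the Sox2 start in replicates 1 (circles) and 2 (squares), with grey lines joining the arrays of a window, stars for windows with a limma adjusted p under 0.05 and a black bar for the gene. Both upstream regions stand out on each array, at up to 1.56, while the windows over the gene lie near 0.

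Of the other gene starts in the interval, the window of Mir1897, which lies within the region at -10.8 kb, was at 1.13 and 1.21 (limma adjusted p = 0.000322). The windows at the starts of the non-coding genes Gm20446, Gm20514 and Gm20515 had means of -0.02, -0.08 and -0.13, and that of the microRNA gene AC137708.1 had a mean of 0.02. None of these 4 passed the threshold, and the arrays differed most at AC137708.1 (0.30 and -0.26) and at Gm20514 (-0.34 and 0.18).

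The far upstream region, at -321 kb (chr3:34226753-34229695), lay in an intron of Gm20514 and of Sox2ot. Its 39 probes averaged 1.14 in replicate 1 and 1.09 in replicate 2, or 1.12 ± 0.04 (SD, n = 2), with a limma adjusted p of 0.000289 at the summit window. It was the longest of the 10 regions, at 2943 bp. Between it and Sox2, the other calls were those at -259 kb and -153 kb, each made on replicate 2 alone and not on replicate 1.

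In the desert beyond Sox2ot 3 regions were called on each array. The region at 453 kb (chr3:35000831-35003442), with 36 probes and no annotated gene, stood at 1.37 and 1.28, or 1.32 ± 0.07 (SD, n = 2), and its limma adjusted p of 0.000106 at the summit was the smallest of the 10. The region at 832 kb (chr3:35380995-35382409), also intergenic, had 21 probes at 1.27 and 1.35, or 1.31 ± 0.06 (SD, n = 2; limma adjusted p = 0.000174). The highest mean was that of the region at 1039 kb (chr3:35587488-35588608), near the far end of the interval, where 13 probes stood at 1.97 and 1.68, or 1.82 ± 0.21 (SD, n = 2; limma adjusted p = 0.00015). Its nearest core match, on the plus strand with 1 mismatch, lay -529 bp from the summit and so outside the searched distance.

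**Figure D3:**
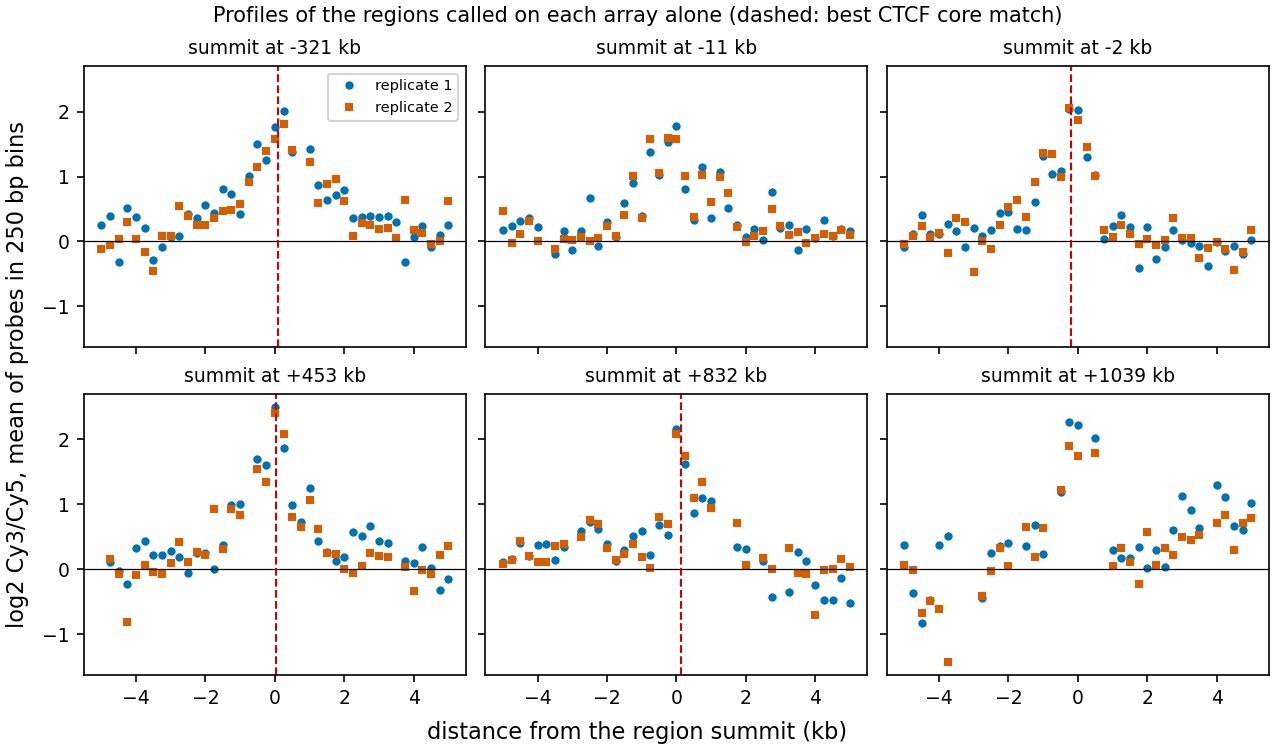
Mean log2 Cy3/Cy5 of probes in bins of 250 bp (y axis) against distance from the summit in kb (x axis) for the 6 regions called on each array alone, in replicates 1 (circles) and 2 (squares), with a dashed line at the best CTCF core match where there was one within 500 bp. Summits were placed at the highest running median of both arrays together, so a maximum near them was largely fixed beforehand. On both arrays the highest bin lies at the summit or next to it, and the ratio is lower farther out. The fall is not smooth. At -10.8 kb the ratio drops to 0.32 and 0.38 at 500 bp and stands at 1.15 and 1.03 at 750 bp, in replicates 1 and 2. At 832 kb it is 0.22 and 0.03 at -750 bp and 0.62 and 0.69 at -2250 bp. At 1039 kb it rises again toward the next region.

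The other 4 regions were weaker or less alike on the arrays. The region at -259 kb rested on 5 probes with a GC content of 29.7% and stood at 0.52 in replicate 1 and 1.39 in replicate 2, so its SD of 0.61 was the largest of the 10. Those at -153 kb and 1043 kb had 19 probes each, with means of 0.73 and 0.78 for the former and 0.82 and 0.67 for the latter. Both were called on replicate 2 alone and not on replicate 1, whose own threshold was higher (0.93 against 0.69). The region at 122 kb had 5 probes at 0.72 and 0.58 and was called on neither array alone. Running medians at the summits nearest the threshold were 0.84 at -153 kb and 0.90 at 122 kb among the regions called, and 0.63 at 925 kb and 0.62 at 830 kb among those just missed.

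**Figure D4:**
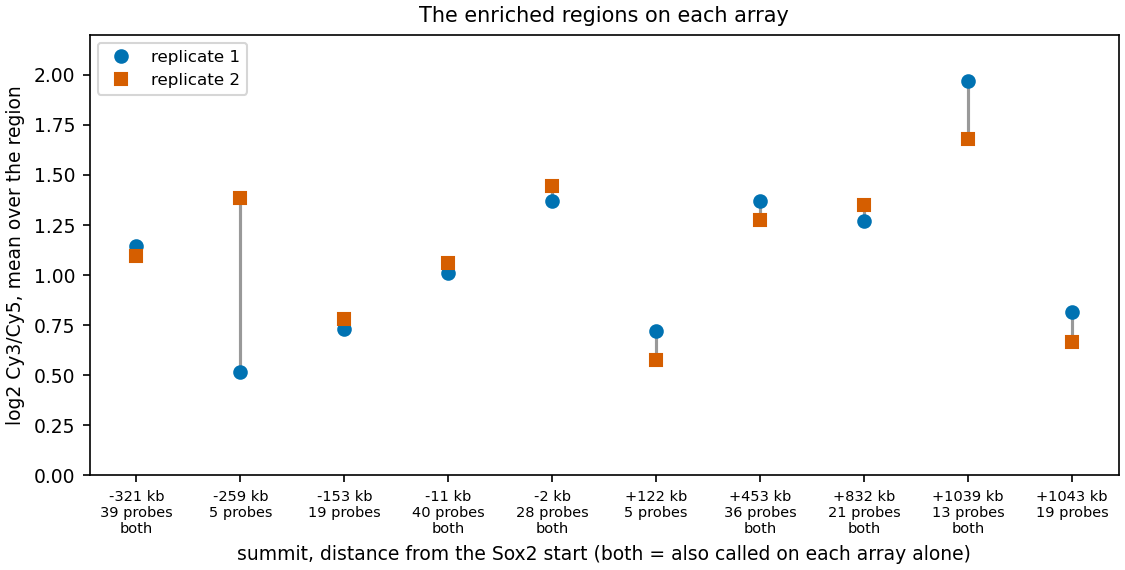
Mean log2 Cy3/Cy5 over each of the 10 regions (y axis) in replicates 1 (circles) and 2 (squares), in order along the chromosome (x axis, distance of the summit from the Sox2 start and number of probes), with the word both under those also called on each array alone. The arrays lie close together except at -259 kb, where they stood at 0.52 and 1.39.

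The regions were unevenly spaced. The summits at -1.92, 122, 453, 832 and 1039 kb were separated by 123.7, 331.6, 379 and 206.7 kb, against 8.85 kb between both regions just upstream of the gene. Within the part of Sox2ot in the interval, 17 of 347 windows (4.90%) were higher in Cy3 and 7 (2.02%) in Cy5. Beyond Sox2ot, the numbers were 14 of 798 (1.75%) and 51 (6.39%). The window means were -0.01 and 0.01 within Sox2ot and -0.10 and -0.08 beyond it, in replicates 1 and 2, at a similar mean GC content of 43.6% and 43.2%. With the trend on GC content removed, the means were 0.04 and 0.04 within and -0.05 and -0.04 beyond. The difference between both stretches was not tested, since windows of 1 array are not replicates.

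The stretch of desert that begins 100 kb downstream of the Sox2 start, where the distal control region of embryonic stem cells is known to lie, showed no call in these renal carcinoma cells. Its 13 windows averaged -0.01 on each array and ranged from -0.27 to 0.25, with 0 windows past the limma threshold in either direction. The nearest call was the region at 122 kb, which neither array gave alone.

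A CTCF core match lay within 500 bp of the summit at 4 of the 10 regions (40%) and at 133 of the 206 on the arrays (64.6%), and an exact match at 3 of 10 and at 41 of 206 (19.9%). The first share is lower and the second higher than on the arrays, and neither difference was tested. The number of regions with a match was 6 of 10 with running medians taken within 200 bp and 7 of 12 in the deposited table. Of all 1 kb windows, 70 of 1146 in the interval (6.11%) and 7.72% on the arrays held a match with at most 1 mismatch. Of the 70, 7 were higher in Cy3 (10%), beside 2.23% of the 1076 windows without a match; on the arrays these shares were 16.6% and 2.79%. In the opposite direction, 3 of the 70 and 55 of the 1076 were higher in Cy5, and on the arrays 36 of 1154 and 840 of 13793. The 64 windows with a match outside the regions averaged -0.05 and -0.02, and 1 of them was higher in Cy3.

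Of the 5 windows of the interval with an exact match, 2 were higher in Cy3 and 0 in Cy5, beside 44 of 78 (56.4%) and 0 on the arrays. Those in the regions at -1.92 and 832 kb stood at 1.53 ± 0.05 and 1.41 ± 0.08 (SD, n = 2). The others, at -55.4, 465 and 810 kb, stood at -0.31 ± 0.20, 0.03 ± 0.08 and -0.11 ± 0.28 (SD, n = 2) and did not pass the limma threshold. The exact match of the region at -321 kb straddled a border between windows and is not among the 5.

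**Figure D5:**
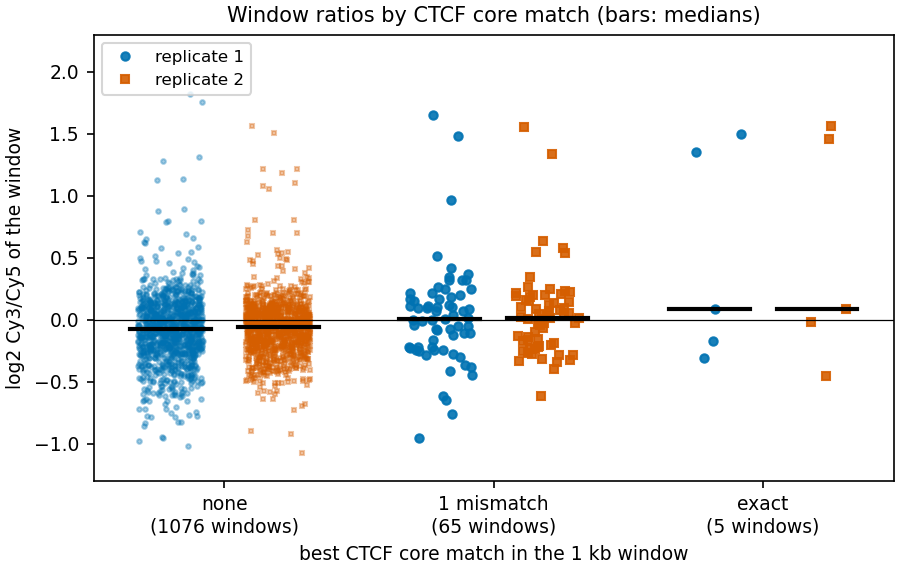
Log2 Cy3/Cy5 of the 1 kb windows of the interval (y axis) by their best CTCF core match (x axis), in replicates 1 (circles) and 2 (squares), with black bars for medians. Windows with an exact match fall into 2 near 1.5 and 3 near or below 0 on both arrays, and most windows with 1 mismatch lie near 0.

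The windows higher in Cy5 had a lower GC content than the others. They averaged 38.9% GC, beside 43.7% for windows higher in Cy3 and 43.6% for those not called. Over quartiles of GC content, from low to high, the numbers higher in Cy5 were 38, 13, 7 and 0, and those higher in Cy3 were 7, 7, 11 and 6. In the lowest quartile (38.1% GC) the windows averaged -0.24 and -0.14, and in the highest (48.2% GC) 0.06 and 0.02. With the trend on probe GC content removed, 3 windows were higher in Cy5 and 29 higher in Cy3, in place of 58 and 31. The split also moved with the centring, to 127 and 28 on the mode of each array and 21 and 31 with loess. With a trended, robust variance prior in limma, 0 windows were higher in Cy5 and 36 in Cy3, and 159 had an unadjusted p under 0.05 toward Cy5. The counts over the arrays moved as well. Of all 14947 windows, 876 were higher in Cy5 and 577 in Cy3. These numbers were 74 and 489 with the GC trend removed, 1797 and 482 on the mode, 200 and 558 with loess, and 0 and 680 with the trended prior.

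Along the desert, the lowest 100 kb stretch was that from 900 to 1000 kb, with window means of -0.32 in replicate 1 and -0.21 in replicate 2, a mean GC content of 39.7% and 15 windows higher in Cy5. The 3 lowest windows of the interval all lay beyond 700 kb. They stood at -0.93 ± 0.22 at 980 kb, -0.68 ± 0.48 at 760 kb and -0.65 ± 0.26 at 1012 kb (SD, n = 2), with limma adjusted p of 0.00221, 0.0347 and 0.0147. The arrays differed at each by more than at most windows of the interval, where the median SD was 0.10.

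For its neighbours on chromosome 3, values are given in both directions. The Sox2 interval had 8.73 regions higher in Cy3 per 1000 windows, and their running medians at the summit had a median of 1.69. The flank from Pex5l to Fxr1 had 10.3 per 1000 and 1.32, and the stretch holding Mccc1, Qrfpr and Anxa5 had 18.5 per 1000 and 1.11, beside 13.8 and 1.30 over the arrays. These stretches held 5 and 14 protein-coding starts against the single one of the Sox2 interval. The shares of windows higher in Cy3 were 2.72% and 5.32%, beside 2.71% in the Sox2 interval, and those higher in Cy5 were 8.07% and 7.27%, beside 5.06%. At a threshold of the same size in both directions, the Sox2 interval had 10 regions in Cy3 and 5 in Cy5, the Pex5l to Fxr1 flank 11 and 14, and the other stretch 17 and 11. No test of these differences was made, since each stretch is 1 sequence on the same 2 arrays.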

How the data were processed

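The authors deposited intensities from Agilent Feature Extraction 10.5.1.1, with the background subtracted and each channel scaled by a linear dye factor. Besides these, the deposited files give the raw median intensity of each spot and of its surroundings, and other values, namely quality marks of 0 or 1. The log2 table the authors deposited was made with Ringo per the study's methods, which give no parameters. Its direction was found from the scanner values after its rows had been matched to probes in text order, skipping the first 3. Of the offsets compared, this one had the highest Pearson r. With 2 skipped, r was 0.550 and 0.558 in replicates 1 and 2, and with 4 skipped 0.548 and 0.559. The centring and smoothing of the deposited table stayed unknown. It served as an alternative.

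Control spots were removed, as were 27 spots with an outlier mark. Copies of a probe were averaged, and the median of each array was subtracted from its log2(Cy3/Cy5) of processed intensities. Probes were averaged in 1 kb windows with at least 3 probes. limma 3.58.1 in R 4.3.3 (lmFit, eBayes) tested the mean of the 2 arrays against 0 over all 14947 windows, two-sided, with Benjamini-Hochberg adjustment at 0.05. The prior had 7 degrees of freedom. Regions were called anew in the manner of Ringo, from running medians within 400 bp of each probe over at least 5 values. The threshold was the 0.99 quantile of the values below the mode after reflection about it, so strong signal in Cy5 makes calls in Cy3 harder and the reverse. A region needed 3 positions, and positions less than 600 bp apart were joined. The count of regions carries no error rate: tested on simulated data, planted regions were recovered, but many regions were also called where none had been planted.

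Regions named in full were those also called on each array alone. Gene starts named were all those of the interval, and the windows named in the opposite direction were the 3 lowest. Members, lists and settings were chosen with earlier results of these data known. Coordinates are mm9, 1-based, and the genome (NCBIM37) and annotation (GENCODE release M1) are of that build. The alternatives were other background corrections, centrings, filters, GC correction, window and region settings, the deposited table and each array alone. The normexp correction used median spot signals. Only 2 arrays limit the precision, and each summary of p-values rests on 1 residual degree of freedom per window plus the prior. Python 3.11.15, numpy 2.4.6 and pandas 2.3.3 were used.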

Additional observations from a re-analysis of the deposited data

How the results depend on the processing

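No paired analysis was possible because both arrays belong to the same group. The 6 regions called on each array alone were found under every alternative of the region call, and their means ranged from 0.95 (at -10.8 kb) to 1.97 (at 1039 kb). For the alternatives without a replicate this outcome was fixed beforehand, because the 6 were chosen by those same calls. The number of windows higher in Cy3 stayed within 1.5 times of 31 under every alternative. The number higher in Cy5, 58 of 1146, was 38 with normexp, 127 with mode centring and 21 with loess. It was 3 with the GC trend removed and 0 with a trended, robust prior in limma. With other numbers of windows, it was 19 of 1131 with probes well above background, 15 of 1115 in the deposited table and 90 of 617 with 2 kb windows. Over the arrays the number was 876 of 14947. In the same order, it was 384, 1797, 200, 74 and 0, then 250 of 14737, 176 of 14289 and 1304 of 8066. Without a replicate no window test was possible, since no residual degrees of freedom remain. The 10 regions higher in Cy3 were 17 with normexp, 6 at the stricter quantile of the null and 6 to 10 without a replicate. The 0 regions higher in Cy5 were 1 with the running median taken within 200 bp, 124 at the 0.95 quantile, 0 to 1 without a replicate and, in a setting chosen after seeing the data, 5 at the threshold of the Cy3 side. The window at the Sox2 start, at 0.10, stood at -0.13 with the GC trend removed (limma adjusted p = 0.544) and at -0.057 with 500 bp windows (0.821). The mean of the stretch beginning 100 kb downstream, -0.0074, had an SD between arrays of 0.0015 and moved by more than that under 12 alternatives, to 0.0018 with normexp, 0.0070 with no background correction, -0.091 with mode centring, 0.0054 with loess, 0.0053 with probes well above background, -0.010 without saturated probes, -0.040 with the GC trend removed, 0.031 in the deposited table, -0.026 and 0.0041 with windows of 500 bp and 2 kb, and -0.016 and -0.0036 with at least 5 probes or 1 probe per window. The cause of these shifts was not tested.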
